A study of Caenorhabditis elegans with 15 samples.

Results

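The comparison described here is that of *age-1; gas-1* double mutants with *gas-1* mutants of *C. elegans*, across all gene classes. Both strains carry *gas-1(fc21)*, an allele of a subunit gene of respiratory complex I on chromosome X, and the double mutants carry in addition *age-1(hx546)* on chromosome II, which lowers insulin/IGF signaling (IIS). Messenger RNA of whole animals, isogenic hermaphrodites synchronized with hypochlorite and grown at 20 °C on OP50 bacteria, was sequenced in 5 libraries per strain, which the study calls biological replicates. The samples are labelled as L4, the last larval stage, while the only RNA extraction given in the methods used young adults. A further 5 libraries of wild-type nematodes (wt, strain N2) gave the background level. The series holds no *age-1* single mutant and 1 strain per genotype, so an effect of *age-1(hx546)* cannot be told apart from any other difference between these strains. Values are FPKM, a measure of transcript abundance per unit length and per mapped read, for 20483 genes. Of these, 11442 genes reached 1 FPKM in at least 5 of the 10 libraries and were tested, and 9041 were left out. At the edge of this filter, 176 genes reached 1 FPKM in exactly 5 libraries and 159 in exactly 4, with median levels of 0.997 and 0.906 FPKM. Among the genes tested, 44 reached 1 FPKM in no *gas-1* library and 37 in no double-mutant library.

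In the IIS pathway, insulin-like peptides act on the receptor DAF-2, and the phosphoinositide kinase AGE-1 passes the signal to the kinases PDK-1, AKT-1 and AKT-2, which keep the forkhead factor DAF-16 out of the nucleus. When the pathway is low, DAF-16 enters the nucleus and raises genes of stress defense, fat metabolism and pathogen resistance. The pathway is known for its control of lifespan, of the dauer larva (a resistant resting stage) and of fat storage. Complex I takes electrons from NADH into the respiratory chain, and *gas-1* mutants are known for low complex I activity and a short life.

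The libraries differed in ways that strain does not explain. Over 51 genes expressed in sperm, the median log2(FPKM + 0.1) was -0.13 in *gas-1* replicate 2, -0.16 in double-mutant replicate 2 and 0.21 in double-mutant replicate 5, against 1.26 to 1.79 in the other *gas-1* and 1.89 to 2.4 in the other double-mutant libraries. These 3 libraries are called sperm-poor below, and counts are given without them where that changes the picture. The first principal component of what remained within strains held 66.3% of its variance. FPKM hold no read totals, and the spacing of low values gave only a rough relative depth, with the log2 value of 1 read between -0.34 and 0.64 against that of *gas-1* replicate 1. Defining genes of the main tissues were present, with 50 of 50 muscle, 24 of 34 neuronal, 8 of 10 intestinal, 6 of 7 epidermal, seam and glial and 56 of 59 oocyte and maternal genes tested. In whole animals, fewer cells of a type and less RNA per cell cannot be told apart.

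The transcripts of the mutated genes differed by less than their spread between the strains. *gas-1* measured 223, 190.3, 221, 219 and 245 FPKM in *gas-1* replicates 1 to 5 and 219.9, 212, 234, 234 and 204 in the double mutants, and the strains overlapped. The mean in wt was 115 ± 11 (SD, n = 5). *age-1* measured 3.95, 3.9, 4.15, 3.84 and 3.12 FPKM in *gas-1* and 3.98, 4.03, 3.9, 3.69 and 3.83 in the double mutants, which again overlapped. Their log2 changes were 0.01 and 0.04, with limma adjusted p of 0.92 and 0.73. Levels of these genes therefore do not check the labels.

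When double mutants were set against *gas-1* mutants, 4305 of 11442 genes passed the test at a 5% false discovery rate (FDR; limma on log2(FPKM + 0.1), adjusted over all genes), which is 37.6%. Of these, 1845 rose (16.1% of genes tested) and 2460 fell (21.5%). The rises were the larger changes. A rise of at least 2-fold was seen in 282 genes (2.46%) and a fall of that size in 102 (0.891%), and 37 genes rose and 21 fell by at least 4-fold. The median change was 0.49 on the log2 scale among genes that rose and -0.25 among those that fell, and 87.4% of the falls against 52.1% of the rises stayed under 0.5. All 5 double-mutant libraries lay above all 5 *gas-1* libraries in 1234 genes (10.8%) and below them in 1826 (16%). The direction went with the level of the gene. Among 3493 genes with a mean under 5 FPKM, 18.3% rose and 9.88% fell, whereas at 100 FPKM and over 12.9% rose and 36.4% fell. The median change over all genes was -0.02. Scaling shifted the balance of the calls, since median-of-ratios rescaling gave 2202 genes that rose and 1936 that fell, so that 53.2% of calls were rises against 42.9% on the FPKM as deposited. The rises of 2-fold and more numbered 309 after that rescaling. Log2 changes below are given without subtraction of that median, and the standard error (SE) of a change had a median of 0.0767. Among the 4305 genes, 1192 belonged to at least 1 of 86 lists drawn up by function. More members rose than fell in 50 lists and more fell than rose in 32, and 4 were even.

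**Figure D1:**
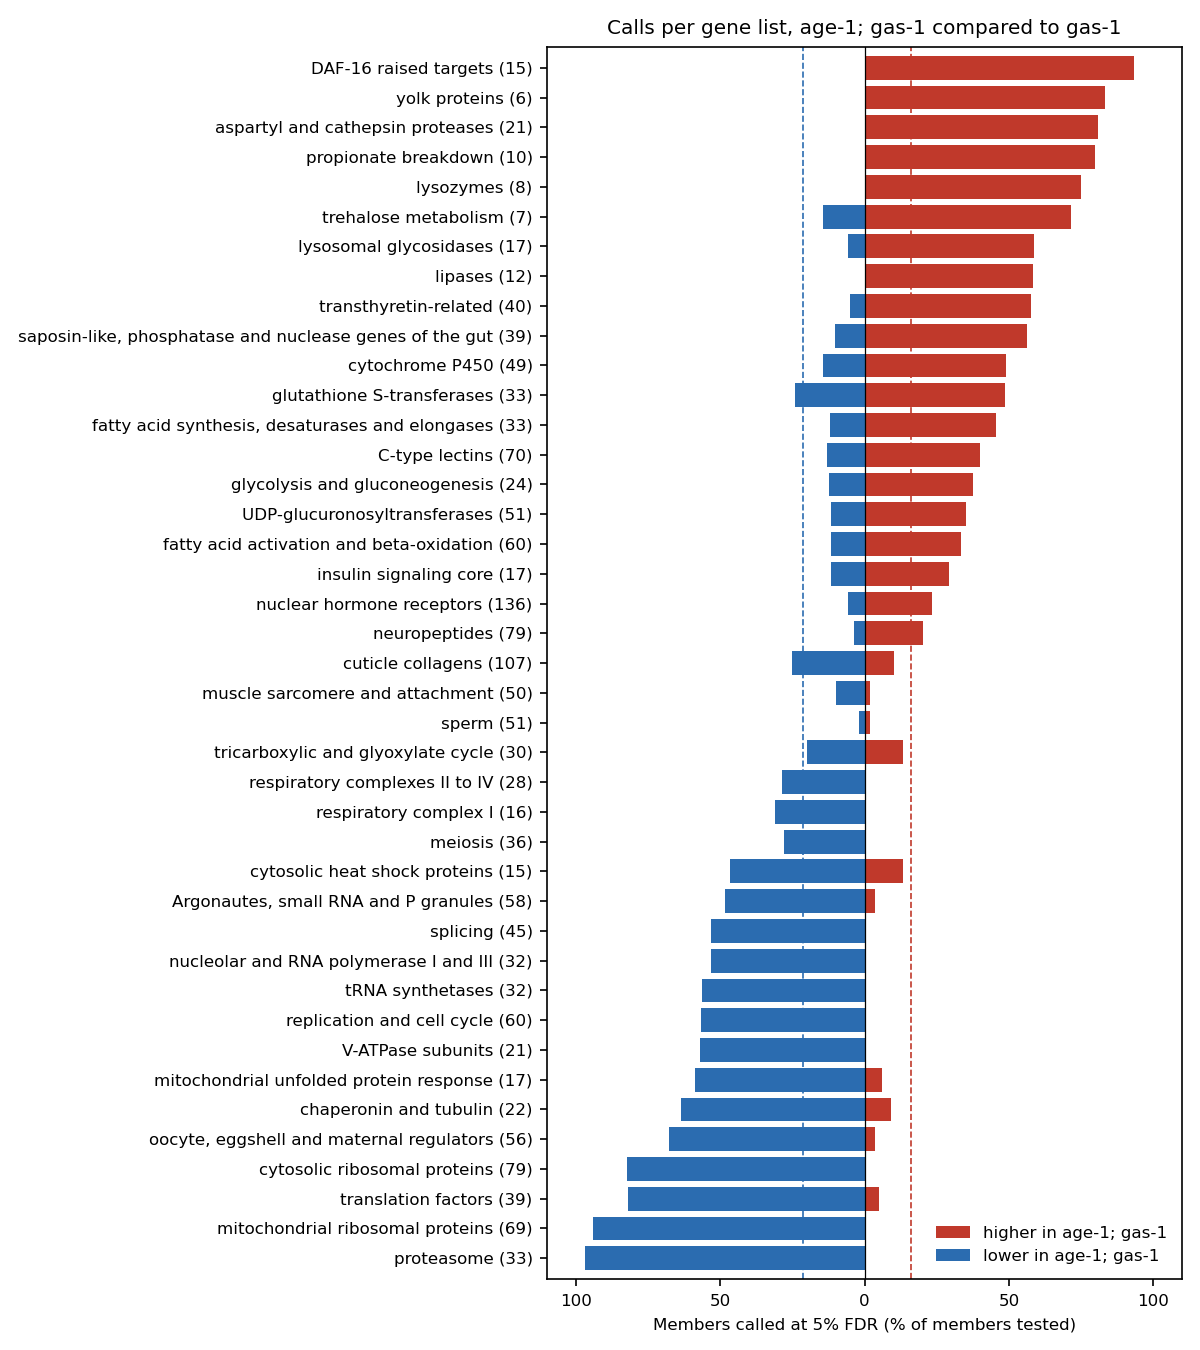
Percent of tested members that rose (red, to the right) or fell (blue, to the left) at 5% FDR in double mutants against *gas-1* mutants, for 41 gene lists with the number of tested members in brackets. Dashed lines mark the 16.1% and 21.5% of all tested genes that rose and fell. The DAF-16 raised targets, yolk proteins and proteases stand at the top, and the proteasome and ribosomal proteins at the bottom.

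More genes of the IIS pathway itself rose than fell, and those that rose encode the receptor, a receptor substrate and kinases. Of 17 core genes, 5 rose, 2 fell and 10 had no call, with a median of 0.02. The shares that rose and fell were 29.4% and 11.8%, against 16.1% and 21.5% of all genes. *akt-2*, which encodes a kinase that phosphorylates DAF-16, measured 3.77, 3.86, 3.87, 4.43 and 4.65 FPKM in *gas-1* and 8.57, 8.23, 10, 9.04 and 8.14 in the double mutants. The groups did not overlap, and the rise was 1.08 on the log2 scale (SE 0.081, limma adjusted p = 6.8e-06). Its partner *akt-1* moved less, with a rise of 0.20 (adjusted p = 0.018). The receptor gene *daf-2* measured 68.9, 60.3, 72.4, 69.3 and 70.4 FPKM in *gas-1* and 90.9, 109.8, 106, 103.8 and 97.4 in the double mutants, against a mean of 70.6 ± 7.22 in wt. Every double-mutant library thus lay above every *gas-1* library, with a rise of 0.57 (SE 0.062, adjusted p = 6.8e-05). *ist-1*, an insulin receptor substrate homolog, rose by 0.99 and the kinase gene *pdk-1* by 0.36. The genes that fell were *par-5*, a 14-3-3 protein that binds DAF-16 (change -0.23), and *hsf-1*, the heat shock factor (change -0.17). The phosphatase gene *daf-18*, the opponent of AGE-1, had a change of -0.11 (adjusted p = 0.19), and *daf-16* one of -0.05 (adjusted p = 0.34). The number that fell was 1 without *gas-1* replicate 1, 2 or 3, without double-mutant replicate 4 or 5 or without the sperm-poor libraries, and 4 without *gas-1* replicate 5.

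Among the ligands, 16 of 39 insulin-like peptide genes were expressed highly enough to be tested, 6 rose and 1 fell. *ins-27* went from 0.462 ± 0.101 to 1.58 ± 0.0804 FPKM (SD, n = 5 each), a rise of 1.59 (adjusted p = 1.3e-05), and *ins-23* rose by 0.95. *ins-27* reached 1 FPKM in no *gas-1* library and *ins-23* in *gas-1* replicate 4 alone. Both thus passed the filter only through the strain where they were higher. The 1 gene that fell was *daf-28*, a peptide that holds back dauer formation (change -0.39, adjusted p = 0.018), to which a further gene was added without *gas-1* replicate 3. All of these were low in whole animals, where the summed level of all 39 peptides was 41.1 to 54.6 FPKM in *gas-1* and 50.4 to 57.1 in the double mutants.

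Genes known to be raised by DAF-16 were, as a list, among the most changed. Of 15 tested, 14 rose and none fell, 11 of them by at least 2-fold, and the median was 1.32. The count of 14 was the same without any single library and without the sperm-poor libraries. It was 13 with a filter at 5 FPKM and 16 without a filter. At 5 FPKM, *fat-5*, *lys-7* and *mtl-1* passed through the double-mutant libraries alone, so their rises there are no further support. *sod-3*, the mitochondrial manganese superoxide dismutase used as a readout of DAF-16, measured 0.766, 0.941, 0.855, 0.864 and 1.05 FPKM in *gas-1* and 3.53, 4.23, 4.19, 3.75 and 4.12 in the double mutants, with 0.224 ± 0.0321 in wt. All double-mutant libraries were higher, by 2.03 on the log2 scale (SE 0.096, adjusted p = 3e-07). Among the *gas-1* libraries, *sod-3* reached 1 FPKM in replicate 5 alone. It thus passed the filter only through the double mutants. The largest rise of the list was that of *fat-5*, a palmitoyl-CoA desaturase, which measured 1.28, 1.48, 0.978, 1.04 and 1.5 FPKM in *gas-1* and 8.41, 8.05, 8.67, 10.1 and 8.07 in the double mutants. It thus rose by 2.71 (SE 0.12, adjusted p = 2.5e-07), and its level in wt ranged over 2.99–9.37 FPKM. *lys-7*, an antibacterial lysozyme, measured 1.71, 1.62, 1.48, 1.76 and 2.43 FPKM in *gas-1* and 12.2, 11.8, 12.4, 13.8 and 10.1 in the double mutants, a rise of 2.69 with no overlap. *lea-1*, a protein of desiccation tolerance, measured 125, 126, 123, 171 and 156 FPKM in *gas-1* and 368, 342, 324, 364 and 338 in the double mutants (rise of 1.32, SE 0.093). *nnt-1*, a mitochondrial transhydrogenase that makes NADPH, went from 4.78 ± 1.84 to 20.3 ± 3.49 FPKM (rise of 2.11). The metallothionein *mtl-1* rose by 2.18, *dod-3* by 2.19, the ferritin *ftn-1* by 1.58 and the glyoxylate cycle enzyme *icl-1* by 1.11. The 1 tested gene of the list without a call was the other metallothionein, *mtl-2* (change 0.02, adjusted p = 0.89). Genes known to be lowered when IIS is low showed no common direction. Of 8 tested, *vit-2* and *vit-5*, which encode yolk proteins, rose and 1 gene fell, *dod-24* (change -0.42, adjusted p = 0.049). No gene of this list fell without *gas-1* replicate 1, 3 or 5, without double-mutant replicate 1, 2 or 5 or without the sperm-poor libraries, and 2 fell without *gas-1* or double-mutant replicate 4.

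**Figure D2:**
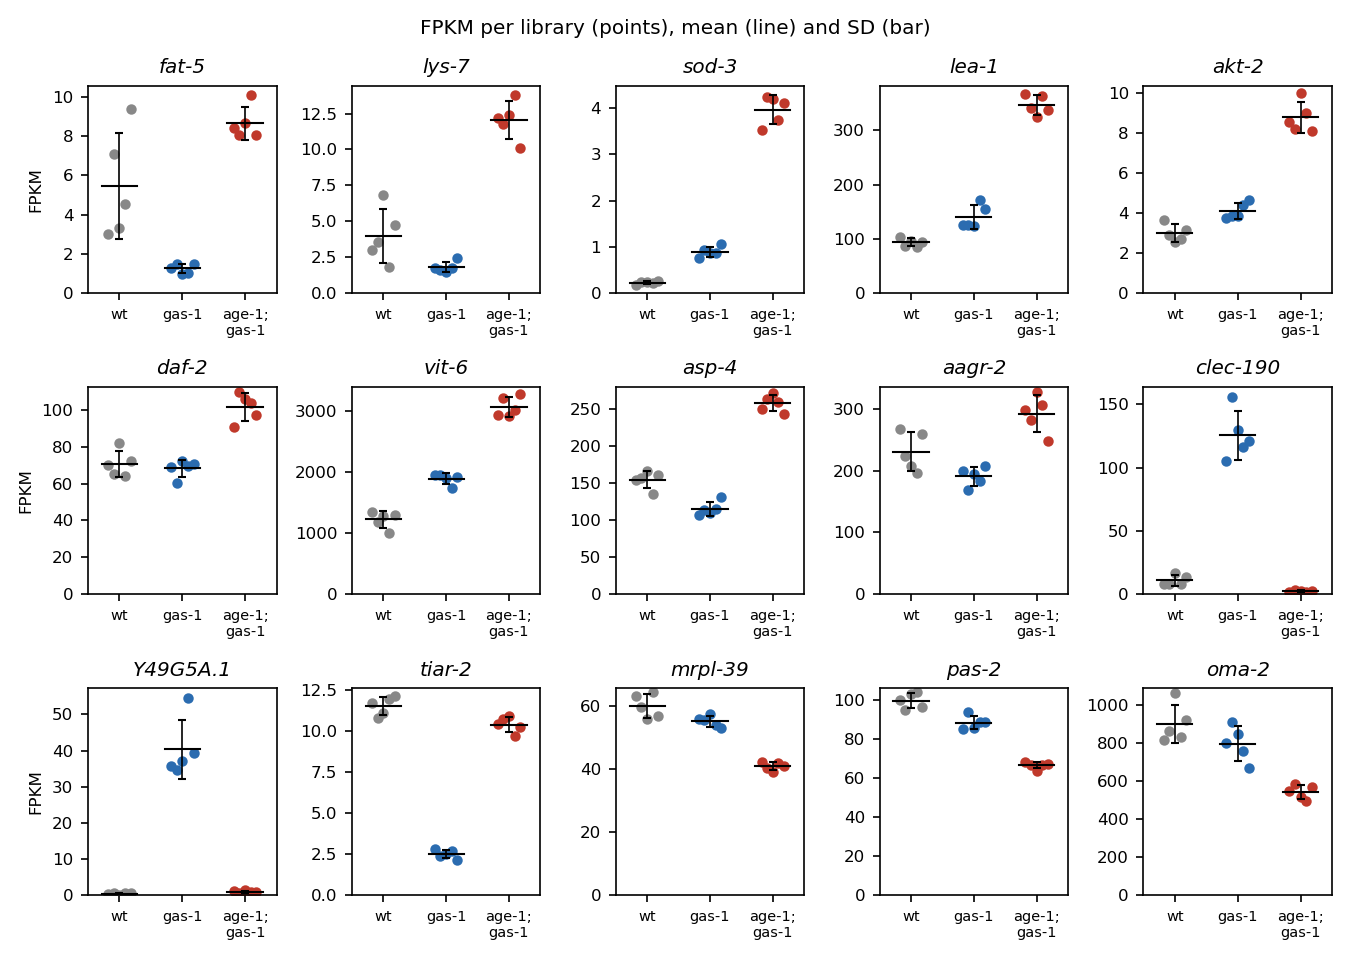
FPKM of 15 genes in each of the 5 libraries of wt, *gas-1* mutants and double mutants (points), with the mean (line) and SD (bar). In every panel the 5 *gas-1* and the 5 double-mutant libraries are separate, with *fat-5* going from a mean of 1.25 to 8.67 FPKM and *clec-190* from 126 to 2.44.

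Outside the thioredoxin and glutathione system, antioxidant and detoxification genes rose more often than they fell, with exceptions within families. Of 6 superoxide dismutases and catalases, 4 rose and none fell. Beside *sod-3*, the cytosolic enzyme *sod-1* rose from 49.6 ± 1.87 to 64.4 ± 2.08 FPKM (0.38, adjusted p = 3.9e-05), and the peroxisomal catalase *ctl-2* rose by 0.57 and *ctl-3* by 0.71. The other mitochondrial dismutase, *sod-2*, had a change of -0.09 (adjusted p = 0.22). Of 33 glutathione S-transferases, which attach glutathione to toxic compounds, 16 rose and 8 fell (median 0.22). These were 48.5% and 24.2%, against 16.1% and 21.5% of all genes. *gst-39* rose from 11.6–13.7 FPKM in the *gas-1* libraries to 20.1–22.3 in the double mutants (0.78), while *gst-7* fell from 53.9–56.2 to 42.1–43.9 (-0.36), and neither pair of ranges overlapped. Of 49 cytochrome P450 genes, 24 rose and 7 fell (median 0.28). *cyp-34A8* went from 19.4 ± 1.55 to 38.7 ± 2.29 FPKM (0.99, adjusted p = 1.8e-06), and *cyp-14A2* rose by 1.16. Of 51 UDP-glucuronosyltransferases, which attach sugars to toxic compounds, 18 rose and 6 fell, *ugt-43* rising by 1.59 and *ugt-51* by 1.17. The flavin monooxygenase gene *fmo-2* measured 25.7, 11.9, 22.2, 13.5 and 14.2 FPKM in *gas-1* and 23.7, 32.2, 34.4, 30.6 and 32 in the double mutants against 0.0929 ± 0.0548 in wt. The mutants overlapped, and the rise of 0.86 (adjusted p = 0.0079) lost its call without the sperm-poor libraries. In the thioredoxin and glutathione system 4 of 23 were higher (17.4%) and 5 lower (21.7%), near the 16.1% and 21.5% of all genes. *gcs-1*, the first enzyme of glutathione synthesis and a target of the stress factor SKN-1, rose by 0.29, and the glutaredoxin *glrx-3* fell (-0.22). Short-chain dehydrogenases held the fall of *dhs-8* (-1.53) and the rise of the lipid droplet protein *dhs-3* (0.80), with 9 of 27 higher and 4 lower.

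Hydrolases of the lysosome and of the gut lumen rose together, whereas the proton pump of the lysosome fell. Of 21 aspartyl and cathepsin proteases, 17 rose, 8 of them by at least 2-fold, and none fell (median 0.70). *asp-4*, an aspartyl protease of the lysosome, measured 107, 113, 109, 115 and 131 FPKM in *gas-1* and 250.3, 263, 271, 259 and 243 in the double mutants. The rise was 1.16 (SE 0.057, adjusted p = 3.4e-07) with no overlap. *asp-17* was the steepest, from 0.738 ± 0.362 to 6.76 ± 2.19 FPKM (3.06), and the cathepsin B gene *cpr-6* rose by 0.70. *asp-17* reached 1 FPKM in only replicate 5 of *gas-1* and so passed the filter through the double mutants. Together the protease genes held 0.327% to 0.439% of the FPKM sum in *gas-1* and 0.526% to 0.618% in the double mutants, against 0.265% to 0.372% in wt. Among 17 lysosomal glycosidases, 10 rose and 1 fell, with *hex-1*, a hexosaminidase, going from 29.1–30.8 to 44.8–49.6 FPKM (0.67, adjusted p = 8.8e-07) and the galactosidase *bgal-1* rising by 1.17. Saposin-like proteins, acid phosphatases and nucleases of the gut had 22 of 39 members higher and 4 lower (median 0.52). *spp-1*, a pore-forming antimicrobial protein, measured 33.6, 33.1, 31.1, 40.7 and 41.2 FPKM in *gas-1* and 114, 124, 134, 137 and 129 in the double mutants, a rise of 1.83 (adjusted p = 2.9e-07). The phosphatase *pho-14* rose by 0.87 to 206 ± 9.08 FPKM, with 196 ± 3.5 in wt. Of 21 subunits of the V-ATPase, which acidifies lysosomes, none rose and 12 fell, by small amounts such as -0.17 for *vha-9* and -0.28 for *vha-10*, and 7 fell without the sperm-poor libraries. Autophagy genes had 5 of 27 members higher (18.5%, near the 16.1% of all genes) and none lower, among them the receptor *sqst-1* (0.68) and the lipid transfer protein *atg-2* (0.53). The number higher was 3 without *gas-1* replicate 4, double-mutant replicate 5 or the sperm-poor libraries, and 2 were lower without double-mutant replicate 2 or 5 or the sperm-poor libraries. *hlh-30*, the factor that drives lysosome and autophagy genes, rose from 129 ± 9.48 to 162 ± 9.9 FPKM (0.33, adjusted p = 0.0018).

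Markers of the intestine moved in part with these genes. Of 8 tested, 3 rose, *ges-1*, *cpr-6* and *asp-1*, and 1 fell, the brush border actin *act-5* (change -0.44). Their median was 0.09, and their summed level was 722 to 955 FPKM in *gas-1* and 838 to 1013 in the double mutants. *ges-1*, a gut esterase, measured 47.1, 47.6, 48.2, 48.6 and 66.2 FPKM in *gas-1* and 109, 112.3, 115, 116 and 102 in the double mutants, a rise of 1.11 (adjusted p = 1e-05). *cpr-6* and *asp-1* are also members of the protease list. The part of the amount of gut tissue in the rises above was not tested.

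Yolk and fat metabolism also moved upward. Of 6 yolk protein genes, whose products are made in the gut and taken up by oocytes, 5 rose and none fell (median 0.68), and together they held 7.68% to 9.83% of the FPKM sum in *gas-1*, 12.4% to 15.2% in the double mutants and 5.13% to 7.04% in wt. *vit-6* measured 1956, 1957, 1901, 1731 and 1924 FPKM in *gas-1* and 2940, 3214, 2914, 3015 and 3281 in the double mutants, a rise of 0.70 (SE 0.051, adjusted p = 5.8e-06). *vit-2*, the most abundant, rose from 48309–63202 FPKM to 79503–98840 (0.66, adjusted p = 0.00066), a call lost after quantile normalization, which sets the top-ranked gene to 1 value in every library (adjusted p = 1), and without a filter on low values (adjusted p = 0.073). Reads may be shared among the near-identical copies *vit-3*, *vit-4* and *vit-5*, and 5 of the 6 genes lie on chromosome X. Among fat synthesis genes, desaturases and elongases, 15 of 33 rose and 4 fell. Beside *fat-5*, the acyltransferase *acl-4* rose from 20.8 ± 1.64 to 40.1 ± 1.74 FPKM (0.95, adjusted p = 1.3e-06), the desaturases *fat-2* and *fat-3* rose by 0.34 and 0.63, and *dgat-2*, which makes triglycerides, by 0.77. Lipases had 7 of 12 tested members higher and none lower (median 0.57). The lysosomal lipase *lipl-5* measured 260.0, 269.9, 249.9, 198 and 311 FPKM in *gas-1* and 509, 519.8, 511, 567 and 467 in the double mutants against 84.2 ± 26.5 in wt. The *gas-1* libraries were thus all lower than the double mutants and all higher than the wt mean, and the rise between the mutants was 1.01 (adjusted p = 4.4e-05). *atgl-1*, the lipase of lipid droplets, had a change of -0.12 (adjusted p = 0.41). Of 60 genes of fatty acid activation and beta-oxidation, 20 rose and 7 fell, *acs-11*, an acyl-CoA synthetase, rising by 0.46 and *ech-1.1*, a subunit of the mitochondrial trifunctional protein, falling by 1.58. The number that rose was 13 without *gas-1* replicate 2 or 3 or double-mutant replicate 3. Fatty acid binding proteins had 10 of 22 higher and 3 lower, *far-8* going from 16.2 ± 1.96 to 43.3 ± 3.27 FPKM, with a wt mean of 38.6 ± 5.14, and the number lower was 1 without *gas-1* replicate 1, 2 or 4 and 0 without the sperm-poor libraries. In the breakdown of propionate, which branched amino acids and odd-chain fats give, 8 of 10 genes rose and none fell (median 0.36), for example *hach-1* (0.55), *alh-8* (0.40) and *acdh-1*, the first enzyme of the shunt that needs no vitamin B12 (0.48). In phosphocholine synthesis, by contrast, the choline kinase *ckb-2* fell from 6.95 ± 0.568 to 2.76 ± 0.445 FPKM (-1.31), and 6 of 20 genes of the methionine cycle and phosphocholine synthesis fell against 1 that rose (4 without the sperm-poor libraries).

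**Figure D3:**
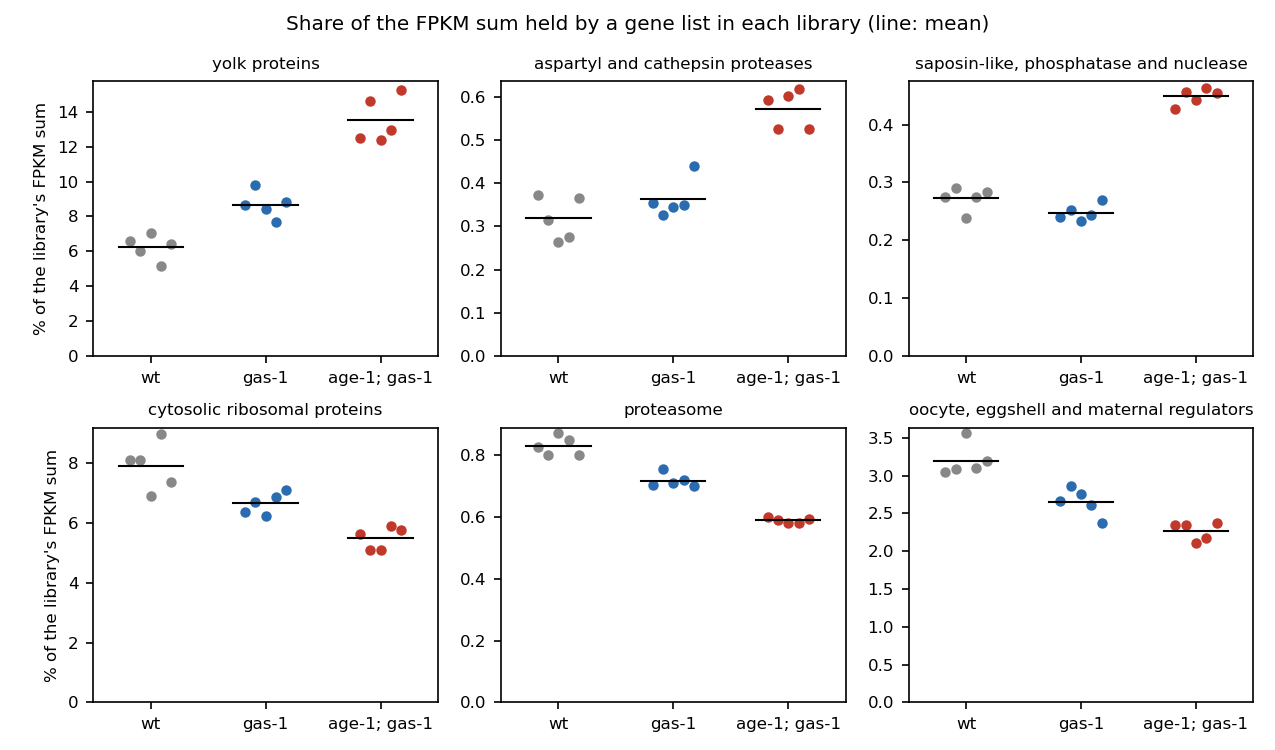
Percent of each library's FPKM sum held by 6 gene lists in wt, *gas-1* mutants and double mutants (points, 1 per library; line, mean). Yolk proteins held 7.68% to 9.83% in *gas-1* and 12.4% to 15.2% in the double mutants, and the proteasome 0.699% to 0.755% and 0.579% to 0.6%.

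In carbohydrate metabolism, genes of gluconeogenesis and trehalose metabolism were among those that rose. Of 24 genes of glycolysis and gluconeogenesis, 9 rose and 3 fell (median 0.07). The number that fell was 5 without *gas-1* replicate 5. The genes that rose included *pck-2*, *pck-1* and *pyc-1* of gluconeogenesis. *pck-2*, a phosphoenolpyruvate carboxykinase, measured 319, 275, 317, 295 and 315 FPKM in *gas-1* and 436, 439, 492, 500.0 and 419.6 in the double mutants, a rise of 0.59 (SE 0.062, adjusted p = 5.5e-05) with no overlap. *pck-1* rose by 0.34 (adjusted p = 0.0032) from 198 ± 13.8 FPKM, its mean in wt being 49.2 ± 3.12, and the pyruvate carboxylase *pyc-1* by 0.39. Of the glyceraldehyde phosphate dehydrogenase genes, *gpd-4* fell (-0.40), while *gpd-2* and *gpd-3*, close copies that may share reads, had changes of 0.24 (adjusted p = 0.006) and 0.28 (adjusted p = 0.0019). Of 10 genes of glycogen turnover and acid glucosidases, 3 rose and 2 fell (median -0.003). These were 30% and 20%, against 16.1% and 21.5% of all genes. The number that fell was 1 without *gas-1* replicate 1, 3 or 4, double-mutant replicate 1, 2, 3 or 5 or the sperm-poor libraries. It was 0 after quantile normalization. The acid glucosidase gene *aagr-1* measured 18.7, 16.3, 17.5, 12.8 and 24.2 FPKM in *gas-1* and 42.1, 34.8, 46.5, 44.4 and 30.9 in the double mutants (rise of 1.16, adjusted p = 0.00036). *aagr-2* rose by 0.61 (adjusted p = 0.00017) to 293 ± 29.6 FPKM against 231 ± 31.4 in wt. The glycogen phosphorylase *pygl-1* had a change of -0.22 (adjusted p = 0.011), and the glycogenin *gyg-1* had a change of -0.21 (adjusted p = 0.1). Trehalose, a sugar that protects against stress, had 5 of 7 genes higher and 1 lower. Both the synthase *tps-1* (0.76) and the trehalase *tre-3* (0.54) rose. In the tricarboxylic and glyoxylate cycle 4 of 30 rose (13.3%) and 6 fell (20%), for example the succinyl-CoA synthetase *sucg-1* (-0.39). These shares were below the 16.1% and 21.5% of all genes. Without the sperm-poor libraries, 2 genes of the cycle fell.

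Genes of energy sensing and nucleotide metabolism changed in both directions. Of 13 genes of the AMP-activated kinase (AMPK) and its activators, 4 rose and 2 fell (median -0.005). These were 30.8% and 15.4%, against 16.1% and 21.5% of all genes. The catalytic subunit *aak-2* rose by 0.21 (adjusted p = 0.0074) and the regulatory subunit *aakg-4* from 24.4 ± 1.94 to 41.6 ± 4.39 FPKM (0.77). The catalytic subunit of protein kinase A, *kin-1*, measured 28.2, 24.1, 27.7, 28.1 and 30.6 FPKM in *gas-1* and 42.2, 35.7, 46.9, 46.3 and 34.4 in the double mutants, a rise of 0.56 (adjusted p = 0.0014). Its regulatory subunit *kin-2* had a change of 0.04 (adjusted p = 0.63). In cAMP signaling as a whole, 4 of 23 genes rose (17.4%, near the 16.1% of all genes) and 1 fell. The number that rose was 8 without *gas-1* replicate 5 and 2 without the sperm-poor libraries. Of 12 purine genes, 2 rose (16.7%, near the 16.1% of all genes) and 5 fell (41.7%, against 21.5%). *atic-1*, which closes the purine ring, rose from 146 ± 5.81 to 186 ± 8.1 FPKM (0.35), and the inosine monophosphate dehydrogenase homolog T22D1.3 fell (-0.33). The xanthine dehydrogenase gene *xdh-1* measured 11, 8.69, 10.5, 9.08 and 8.19 FPKM in *gas-1* and 8.44, 8.44, 9.8, 8.84 and 8.58 in the double mutants, which overlapped (change -0.10, adjusted p = 0.4). The number of purine genes that fell was 2 without *gas-1* replicate 1, 3 or 4 or double-mutant replicate 1 or 5 and without the sperm-poor libraries, and 3 without double-mutant replicate 2.

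Nuclear genes of mitochondrial proteins fell where they serve translation, import and protein folding, with fewer calls in the respiratory complexes. Among 69 genes for proteins of the mitochondrial ribosome, 65 were lower and none higher (median -0.30), and they ranged from -0.58 to -0.03. *mrpl-39* measured 56, 55.8, 57.5, 54.2 and 53 FPKM in *gas-1* and 42.2, 40.5, 39.1, 42.1 and 41 in the double mutants, a fall by 0.43 on the log2 scale (SE 0.035, adjusted p = 1.2e-05) with no overlap. *mrps-18.C* fell by 0.53. Of 17 genes of the mitochondrial unfolded protein response, 10 fell and 1 rose. Those that fell were chaperones and importers, such as *hsp-60* (-0.38), *hsp-6* (-0.18), *tomm-22* (-0.41), *timm-17B.1* (-0.37) and *tomm-20* (-0.33), and the gene that rose was *dve-1*, a homeobox factor of the response (0.38). Of 16 complex I genes, 5 fell (31.2%, against 21.5% of all genes) and none rose (median -0.12). *nduf-2.2*, a close paralog of *gas-1* with which it may share reads, went from 208 ± 5.45 to 162 ± 5.72 FPKM (-0.36, adjusted p = 2.7e-05) and *nuaf-3*, an assembly factor, fell by 0.23. The number that fell was 2 after each of 3 rescalings, without *gas-1* replicate 4 or double-mutant replicate 2 or 5 and without the sperm-poor libraries, 3 without double-mutant replicate 1, and 10 with the sperm level as a covariate. In complexes II to IV 8 of 28 fell (28.6%) and none rose (4 fell without the sperm-poor libraries). In the ATP synthase 2 of 14 fell (14.3%, below the share of all genes), *asb-1* among them (-0.29), and *mai-1*, an inhibitor of the enzyme, rose (0.51). The fusion gene *fzo-1*, a mitofusin, had a change of -0.08 (adjusted p = 0.23), and the fission receptor *mff-2* fell by 0.32.

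Genes of protein synthesis and of the proteasome fell by small amounts, unlike the proteases described above. Of 33 proteasome genes, 32 fell and none rose (median -0.24). *pas-2*, a core subunit, measured 85, 93.6, 85.6, 88.7 and 88.8 FPKM in *gas-1* and 68.1, 66.7, 63.7, 66.7 and 66.9 in the double mutants, a fall by 0.41 (SE 0.035, adjusted p = 1.5e-05). Their share of the FPKM sum was 0.699% to 0.755% in *gas-1*, 0.579% to 0.6% in the double mutants and 0.799% to 0.872% in wt, so that the double mutants lay below both other strains in every library. The count of falls stayed between 29 and 32 in all settings. The chaperonin that folds actin and tubulin and its cofactor prefoldin fell too, *cct-2* by 0.40 and *pfd-3* by 0.48, in a list with 14 of 22 lower and 2 higher. Cytosolic ribosomal proteins had 65 of 79 lower and none higher, and their share of the FPKM sum was 6.22% to 7.11% in *gas-1* and 5.09% to 5.89% in the double mutants. The number lower was 45 after upper-quartile rescaling and 54 without the sperm-poor libraries. In the other steps of translation, 32 of 39 translation factors fell and 2 rose, *inf-1* (eIF4A) by 0.43 and *eif-3.I* by 0.45 downward. *ife-2*, an eIF4E gene, had a change of -0.03 (adjusted p = 0.66). Aminoacyl-tRNA synthetases had 18 of 32 lower and none higher, *tars-1* going from 224–229.9 to 172–183 FPKM (-0.35). Nucleolar proteins and polymerases I and III had 17 of 32 lower, including *nol-58* (-0.38) and *nol-56* (-0.38), which guide the modification of ribosomal RNA, and splicing genes 24 of 45, among them *snr-4* (-0.34) and *snr-3* (-0.34). After median-of-ratios rescaling, 25 translation factor, 12 tRNA synthetase, 13 nucleolar and polymerase and 13 splicing genes fell.

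Heat shock proteins of the cytosol divided. Of 15 genes tested, 7 fell and 2 rose. Those that fell included the constitutive chaperone *hsp-1*, by 0.37, the cochaperone *sti-1* by 0.37 and the small protein *hsp-17* by 0.67. Those that rose were the stress-induced *hsp-70*, from 0.992 ± 0.418 to 5.14 ± 1.89 FPKM (2.27, adjusted p = 0.0002), and the small heat shock protein *hsp-12.3* (1.29). Among the *gas-1* libraries, *hsp-70* reached 1 FPKM in replicates 1 and 3 alone. It thus passed the filter only through the double mutants. In the endoplasmic reticulum *hsp-4* (BiP) fell from 42.8 ± 0.853 to 35.2 ± 0.81 FPKM (-0.28), with 2 of 21 genes of its stress response higher and 4 lower, shares below those of all genes. The number higher was 0 without *gas-1* replicate 2, 4 or 5, double-mutant replicate 2, 3 or 5 or the sperm-poor libraries, and 1 without *gas-1* replicate 1 or 3 or double-mutant replicate 1.

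Genes of the female germ line fell by small amounts. Of 56 oocyte, eggshell and maternal regulators, 38 fell and 2 rose (median -0.23). *oma-2*, which acts in oocyte maturation, measured 800.0, 912, 845, 755 and 668 FPKM in *gas-1* and 546, 582, 513, 496 and 569 in the double mutants, a fall by 0.55 (SE 0.08, adjusted p = 0.00045) with no overlap. The eggshell protein *perm-1* fell by 0.34. Replication and cell cycle genes had 34 of 60 lower and none higher, for example the origin recognition genes *orc-1* (-0.35) and *orc-4* (-0.33), and 22 were lower without *gas-1* replicate 2. Meiosis genes had 10 of 36 lower (27.8%, against 21.5% of all genes), among them *htp-1*, a chromosome axis protein (-0.33). The number of meiosis genes lower was 6 without *gas-1* replicate 4 or the sperm-poor libraries and 19 without *gas-1* replicate 5. Argonautes, small RNA factors and P granule genes had 28 of 58 lower and 2 higher, including *pgl-1*, a core P granule protein (-0.36), and *wago-4* (-0.41). Sperm genes gave 1 rise, that of *msrp-7* (1.12), and 1 fall among 51 tested. Counts of these genes without the sperm-poor libraries are not given, because those libraries were picked by the level of the same genes. Their summed share was 0.0241% to 0.056% of the FPKM sum in *gas-1* and 0.0219% to 0.0741% in the double mutants. Of 18 embryonic patterning genes, 2 rose and 2 fell, 11.1% each, which is below the shares of all genes. Their median was 0.14, and the falls were those of the T-box factors *tbx-36* (-0.46) and *tbx-9* (-0.37). The number that rose was 4 without *gas-1* replicate 5 or double-mutant replicate 4 and 1 without *gas-1* replicate 2, 3 or 4, double-mutant replicate 2, 3 or 5 or the sperm-poor libraries. Without the sperm-poor libraries 28 oocyte, 30 replication and 19 small RNA genes fell. The part of animal age or of the size of the germ line in these falls was not tested. Of 17 histone genes, 2 rose and 6 fell. The core histone *his-60* fell (-0.91), and the linker histone *hil-1* rose from 7.6 ± 1.33 to 17 ± 1.81 FPKM (1.16, adjusted p = 3.6e-05) and *hil-7* rose by 1.8.

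Cuticle collagens held some of the steepest changes in both directions, with a wide spread between replicates. Of 107 tested, 11 rose (10.3%, against 16.1% of all genes) and 27 fell (25.2%, against 21.5%), with a median of -0.83. *col-165* measured 0.201, 1.82, 0.0297, 0.569 and 2.78 FPKM in *gas-1* and 6.43, 25.2, 8.94, 5.91 and 24.8 in the double mutants. The double mutants were all higher, although replicates 2 and 5 were far above the others, and the rise was 4.11 (SE 0.82, adjusted p = 0.003). *col-74* showed the same spread (0.0106, 1.13, 0.0125, 0.396 and 1.11 FPKM in *gas-1* and 2.45, 9.63, 4.09, 2.33 and 10 in the double mutants, rise of 3.62). In the other direction, *col-137* fell from 1.92–6.81 to 0.126–0.42 FPKM (-3.75) and *col-95* from 155–174 to 71.7–95.5 (-1, adjusted p = 1.7e-05). The number of collagens that fell was 14 without *gas-1* replicate 1 or 4 or double-mutant replicate 5, 15 without *gas-1* replicate 3, 16 without double-mutant replicate 2, 51 without *gas-1* replicate 2 and 58 without the 3 sperm-poor libraries. The number that rose was 7 without *gas-1* replicate 3 or 4 or double-mutant replicate 3. Among other genes of the cuticle, 9 of 38 hedgehog-related and patched-related genes rose and 4 fell (2 without *gas-1* replicate 1 or 3, 8 without *gas-1* replicate 2 and 7 without the sperm-poor libraries). *grd-3* went from 18.3 ± 2.72 to 46.3 ± 5.48 FPKM (1.34), with a wt mean of 54 ± 10.9, and the metalloprotease *nas-20* rose by 1.06. Epidermal, seam and glial markers had 1 of 6 higher (16.7%, near the share of all genes), *che-14* (0.50, adjusted p = 0.017), a call lost without the sperm-poor libraries.

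Genes of innate defense changed in both directions, with more rises. Of 70 C-type lectins, 28 rose and 9 fell. *clec-190* had the largest fall of all genes by the rule used here, with 105, 156, 130.3, 116 and 121 FPKM in *gas-1* and 1.73, 3.32, 2.65, 1.84 and 2.68 in the double mutants. It fell by 5.65 on the log2 scale (SE 0.17, adjusted p = 2.7e-08), and its mean in wt was 10.8 ± 4.18. *clec-52* rose from 1.7–4.85 to 16.8–20.6 FPKM (3.00), and *clec-50* by 1.32. Of 8 lysozymes, 6 rose and none fell, *lys-8* going from 8.93 ± 0.769 to 22.2 ± 1.33 FPKM (1.31). Antimicrobial peptides had 5 of 19 higher (3 without *gas-1* or double-mutant replicate 4) and 2 lower, the thaumatin *thn-2* rising by 1.33 and *nlp-24* falling from 33.1–42.2 to 12.1–16.1 FPKM (-1.49). Genes known to respond to infection gave 9 rises and 4 falls among 20 (45% and 20%, against 16.1% and 21.5% of all genes). *irg-1*, a gene of the response to blocked translation, rose from 1.14 ± 0.635 to 7.03 ± 2.32 FPKM (2.56). In the pals family, which responds to intracellular pathogens, *pals-26* rose by 1.92 and *pals-32* fell by 2.09. Secreted proteins of the transthyretin-related family, which is large in nematodes, had 23 of 40 higher and 2 lower (median 0.48). *ttr-46* measured 87.9, 93, 83.3, 94.1 and 91.7 FPKM in *gas-1* and 173, 179, 171, 184 and 188 in the double mutants, a rise of 0.99 (SE 0.043, adjusted p = 1.9e-07).

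Most neuronal, muscle and transcription factor genes had no call, as held for all genes tested, of which 37.6% passed. Neuropeptides and nuclear hormone receptors had 20.3% and 23.5% of members higher, against 16.1% of all genes. They had 3.8% and 5.88% lower, against 21.5%. Muscle genes had 2% higher and 10% lower. Of 79 neuropeptide genes, 16 rose and 3 fell, the number that fell being 5 without *gas-1* replicate 2 and the number that rose 9 without *gas-1* replicate 2 or double-mutant replicate 3, 8 without *gas-1* replicate 3, 10 without double-mutant replicate 4 and 7 without the sperm-poor libraries. *tbh-1*, which makes octopamine, rose from 460.4 ± 46.1 to 709 ± 71.3 FPKM (0.62, adjusted p = 0.00023), whereas the synaptotagmin *snt-2* fell by 0.40. The acetylcholine receptor subunit *unc-38* rose by 1.08 and *acr-12* fell by 0.65. In the cilia, the transport gene *osm-1* rose by 0.46, and *dyf-3* fell from 16.4 ± 2.42 to 7.46 ± 0.791 FPKM, with 1.25 ± 0.0736 in wt (-1.12, adjusted p = 3.8e-05). Of 50 sarcomere and attachment genes of muscle, 1 rose, the myosin *myo-3* (0.37), and 5 fell, with a median of 0.00 (4 rose without *gas-1* replicate 5, and 3 fell without the sperm-poor libraries). Nuclear hormone receptors, a large family of ligand-dependent factors in nematodes, had 32 of 136 higher and 8 lower, and none reached 2-fold. The number that rose was 21 without double-mutant replicate 3. The bZIP factor *zip-11* measured 16.6, 28.8, 15.9, 25.7 and 24.5 FPKM in *gas-1* and 5.17, 4.98, 4.42, 4.81 and 5.17 in the double mutants, a fall by 2.12 (SE 0.16, adjusted p = 6.4e-06), and its mean in wt was 6.27 ± 0.296. The stress factor genes *skn-1* and *hlh-30* had changes of -0.03 (adjusted p = 0.59) and 0.33. In the hypoxia and sulfide pathway 4 of 14 genes rose (2 without *gas-1* replicate 4 or double-mutant replicate 3) and 1 fell (median 0.10). The gene that fell was *rhy-1*, an inhibitor of HIF-1, which went from 5.74 ± 0.326 to 3.36 ± 0.554 FPKM (-0.77). The serpentine receptor genes *srlf-30* and *sri-40* moved apart, *srlf-30* from 9.94–11.9 to 31.2–40.8 FPKM (1.73) and *sri-40* from 26.8–30.2 to 10.1–11.3 (-1.37). Only 31 of 1317 serpentine receptor genes were high enough to be tested, of which 11 rose and 2 fell. Among dauer-linked genes, 7 of 11 rose and 1 fell. *pud-3*, named for its rise in *daf-2* mutants, measured 0.809, 2.21, 1.04, 0.833 and 3.08 FPKM in *gas-1* and 6.26, 11, 6.1, 5.77 and 13.6 in the double mutants, against 16.4 ± 5.14 in wt (rise of 2.46).

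Many of the steepest changes lay in genes without a locus name, which made up 42.6% of the genes that rose and 52.9% of those that fell by at least 2-fold, against 38.3% of all genes tested. By size, with separate libraries and at least 5 FPKM, the 15 largest rises ranged from 2.44 to 4.11 and the 15 largest falls from -5.65 to -1.75 on the log2 scale. Y49G5A.1 measured 35.8, 34.6, 37.1, 54.6 and 39.4 FPKM in *gas-1* and 1.02, 0.639, 1.26, 0.927 and 0.758 in the double mutants against 0.392 ± 0.168 in wt, a fall by 5.32 (SE 0.17, adjusted p = 3.4e-08). Thus the *gas-1* libraries alone were high. E01G4.5 behaved alike on a smaller scale, with 8.43–9.45 FPKM in *gas-1*, 1.85–2.17 in the double mutants and 1.72–2.85 in wt (-2.10). Y37E3.30 (-2.30), Y41C4A.17, listed as a noncoding RNA (-2.09), B0511.11 (-2.16), C44B11.6 (-2.13) and F44E7.5 (-1.99) fell to means within 1.5 times those in wt. C55C3.6 (-2.38) and C55C3.3 (-1.83), both on chromosome IV, fell together. H02F09.3 fell from 11.5 ± 2.72 to 2.77 ± 0.681 FPKM although wt had 12.9 ± 5.43. Among the rises, C06B3.7 (2.55) and F17B5.1 (2.72) were low in wt, at 0.583 ± 0.646 and 0.532 ± 0.344 FPKM. C06B3.7 measured 3.59, 2.1, 3.03, 1.9 and 4.24 FPKM in *gas-1* and 11.7, 20.7, 20.5, 16.6 and 17.8 in the double mutants, with no overlap. R05H10.7 (3.07), Y110A2AL.3 (2.79), Y6E2A.4 (2.57) and the dienelactone hydrolase domain gene *dlhd-1* (2.44) were likewise higher in all 5 double-mutant libraries.

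Chromosomes differed in the share of genes that rose and fell. On chromosome X, 23.4% of 1619 tested genes rose and 8.83% fell (median 0.08), while on chromosome I 10.5% of 1922 rose and 27% fell (median -0.06). The other autosomes lay between, with 12.4% to 20.3% higher and 19.8% to 25.8% lower. The distance between X and the autosomes went with the level of the gene. Under 5 FPKM, 18.9% of X genes and 18.1% of autosomal genes rose, whereas at 100 FPKM and over 35.3% of 116 X genes and 10.8% of 1220 autosomal genes rose, and 9.48% and 39.2% fell. Over all settings tried, 15.8% to 31.7% of X genes rose and 5.74% to 14.1% fell. Of all 11442 genes tested, 1619 lie on X. Several classes that fell hold few X genes, since none of the 69 mitochondrial ribosomal, 33 proteasome and 60 replication genes tested and 2 of 79 cytosolic ribosomal genes lie there. Of classes that rose, 5 of 6 yolk, 11 of 40 transthyretin-related and 10 of 39 saposin-like, phosphatase and nuclease genes do. Other classes that rose hold few, with 3 of 70 C-type lectins, 2 of 33 glutathione S-transferases and 4 of 51 UDP-glucuronosyltransferases. The part of class membership in the share of X was not tested. Rises of at least 2-fold were most numerous on chromosome V, followed by IV with 61 genes, and X held 30.

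**Figure D4:**
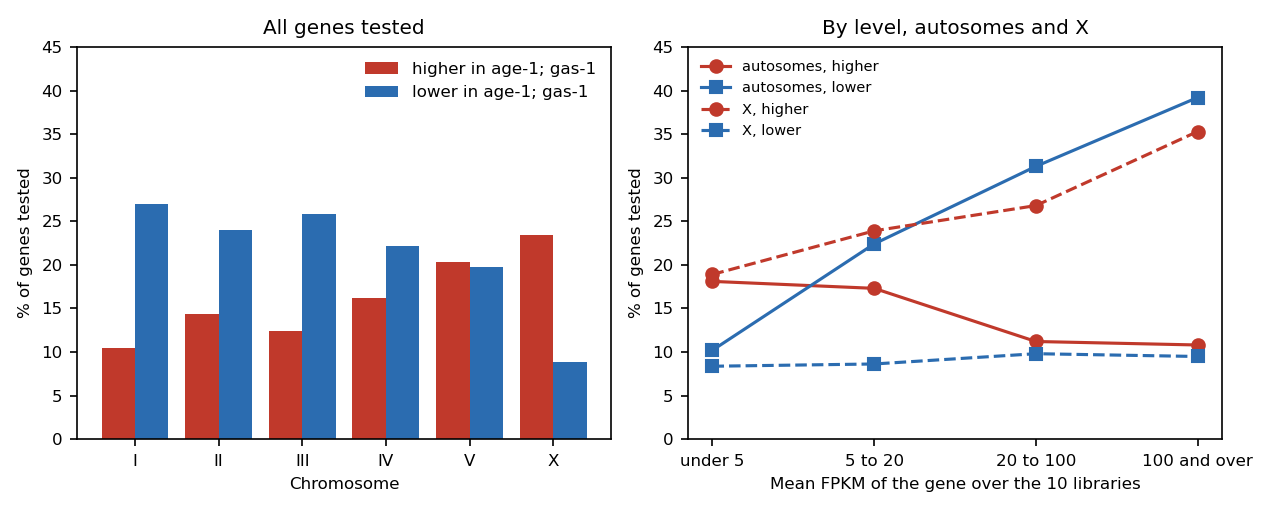
Left, percent of tested genes that rose (red) or fell (blue) at 5% FDR on each chromosome. Right, the same percent by mean FPKM of the gene for autosomes (solid lines) and X (dashed lines). At 100 FPKM and over, 35.3% of X genes rose against 10.8% of autosomal genes.

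Since the strains differ at *age-1*, linked sequence on chromosome II may differ between them, and calls were counted by distance from that gene. Of 156 tested genes within 0.5 Mb of *age-1*, 12.8% rose and 22.4% fell, and of 795 genes at 5 Mb or more 13.7% rose and 22.8% fell. By at least 2-fold, 4 of the 156 genes rose and 0 fell, against 20 and 7 of the 795. Over all genes tested, 2.46% rose and 0.891% fell by that much. Within 3 Mb, 25 genes changed by at least 2-fold, among them those named below and *dhs-8* and *msrp-7*, described above. *tiar-2*, an RNA-binding protein of stress granules 1.24 Mb from *age-1*, measured 2.77, 2.37, 2.51, 2.67 and 2.17 FPKM in *gas-1*, 10.4, 10.7, 10.9, 9.66 and 10.2 in the double mutants and 11.7, 10.8, 11.1, 11.9 and 12.2 in wt. The *gas-1* libraries alone were low, and the rise between the mutants was 2.01 (SE 0.073, adjusted p = 5.6e-08). E01G4.5, described above, lies 1.95 Mb away, and the zinc transporter gene *zipt-2.3* (-1.97) 2.19 Mb away. F54D5.3, 0.0448 Mb from *age-1*, rose from 36.7 ± 5.44 to 109 ± 10.4 FPKM (1.57, adjusted p = 1.7e-06). The neighbours ZK1320.2 and ZK1320.3, 1.86 Mb away, rose by 1.57 and 1.00. No genotype data were used here, so changes of these genes that come from linked sequence cannot be told apart from those of the mutated gene.

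**Figure D5:**
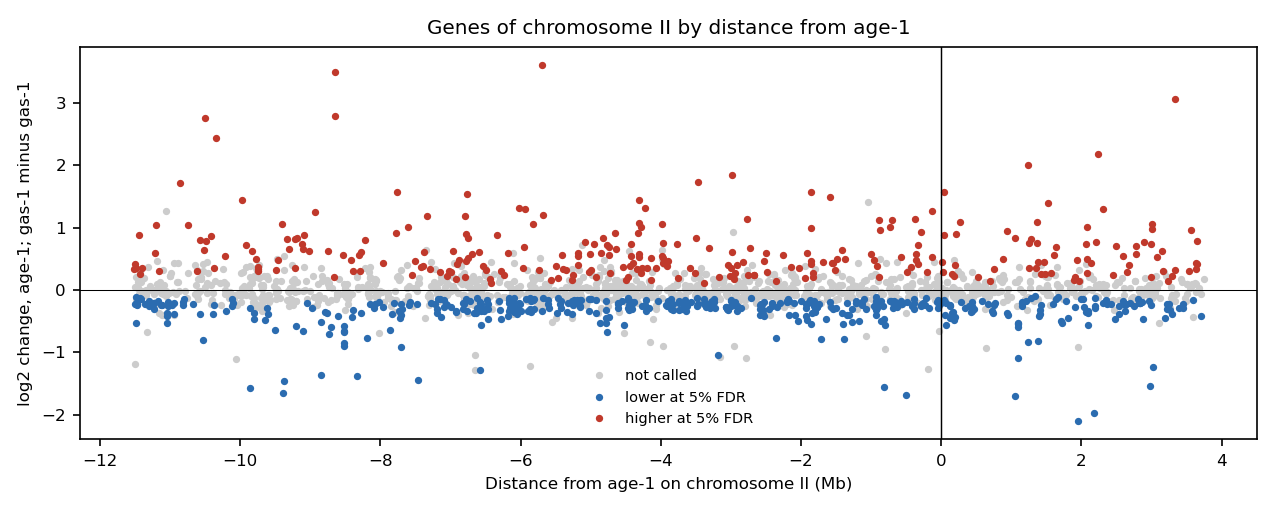
Log2 change of each tested gene of chromosome II between double and *gas-1* mutants, plotted against its distance from *age-1* (Mb), with genes that rose in red, genes that fell in blue and others in grey. Calls are spread along the whole chromosome, with 12.8% of genes within 0.5 Mb higher and 22.4% lower.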

How the data were processed

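Whole-animal messenger RNA of 15 libraries was sequenced, 5 per strain, and the 10 of the mutant strains were compared. The authors deposited FPKM per gene, 1 table per library with the same 20483 genes. The submitters' processing notes list, with no role for each, Cuffdiff, Cufflinks 2.1.1, STAR 2.4.0h, FastQC 0.10.1 and CASAVA 1.8.2. Neither the build nor strandedness of the quantification was found in these sources, and genes that overlap, lie antisense or have close copies are uncertain. FPKM are scaled to a library's total, so a large change in abundant transcripts shifts the others. Read totals are unknown, and the rough relative depth came from the spacing of low values.

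Genes reaching 1 FPKM in 5 or more of the 10 libraries were tested with limma 3.58.1 (R 4.3.3, trended variance) on log2(FPKM + 0.1), and p-values were adjusted by Benjamini-Hochberg over all 11442 genes. Fold changes on this scale understate those of low genes. Other named genes also passed the filter only through the strain where they were higher. These include *dhs-8*, *col-137* and *zipt-2.3*, which reached 1 FPKM in no double-mutant library. They also include *col-165*, *col-74*, *irg-1* and R05H10.7, which reached it in only replicates 2 and 5 of *gas-1*. P-values measure the spread between the libraries, which the study calls biological replicates. Positions came from the WBcel235 annotation by gene identifier, matching 20179 of 20483. Alternatives were other pseudocounts, filters, rescalings, weights, a replicate block, all 15 libraries, a stricter threshold and leaving out each library. A fit without the 3 sperm-poor libraries and one with the sperm level as covariate were added after seeing the data.

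Members and lists were chosen with earlier results of these data known. The rule for named genes took the 15 largest rises and 15 largest falls at 5% FDR with separate groups and a mean of at least 5 FPKM in the higher group, the 2 called members of each list with the smallest adjusted p, and genes the study names around its sequencing. Named outside it, after their values were seen, were *par-5*, *hsf-1*, *daf-18*, *daf-28*, *dod-24*, *dod-3*, *nnt-1*, *mtl-1*, *mtl-2*, *ftn-1*, *icl-1*, *ctl-2*, *ctl-3*, *sod-2*, *act-5*, *asp-1*, *vit-3*, *vit-4*, *fat-2*, *fat-3*, *dgat-2*, *atgl-1*, *acdh-1*, *pyc-1*, *gpd-2*, *gpd-3*, *gyg-1*, *pygl-1*, *hsp-60*, *hsp-6*, *tomm-22*, *dve-1*, *hsp-1*, *hsp-70*, *hsp-12.3*, *hil-7*, *skn-1*, F54D5.3, ZK1320.2 and ZK1320.3. A planned search of promoters was not run, and no sequences were used here.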

Additional observations from a re-analysis of the deposited data

Results flagged for a closer look

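In 402 groups of 5 libraries (the named genes in each mutant strain), 25 single libraries lay far from the other 4 by Dixon's criterion, which is 6.22%. Chance flags about 1 in 20 groups. *gas-1* replicate 5 held 10 of the 25, *gas-1* replicate 4 held 5 and *gas-1* replicate 2 held 3, and the others were spread over 4 double-mutant libraries.

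*gas-1* replicate 5 was high in 6 genes, all of which rose in the double mutants with no overlap. It measured 1.37 FPKM for *asp-17*, with the other *gas-1* libraries at 0.479 to 0.678, and 2.43 for *lys-7* (1.48 to 1.76). It measured 2.25 for *irg-1* (0.712 to 1.10), 44.7 for *sqst-1* (30.7 to 33.4), 66.2 for *ges-1* (47.1 to 48.6) and 9.47 for the monooxygenase gene *fmo-1* (5.61 to 6.64). It was low in 4 genes, with 343 FPKM for *sti-1* (369 to 379), 96.7 for the ATPase gene *catp-6* (109 to 115), 44.4 for *fzo-1* (49.5 to 50.7) and 18.8 for the sperm vesicle gene *spe-39* (20.1 to 20.6).

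*gas-1* replicate 4 measured 4.85 FPKM for *clec-52* (1.70 to 2.18 in the others), 54.6 for Y49G5A.1 (34.6 to 39.4), 3.26 for *cyp-14A2* (2.38 to 2.63), 1731 for *vit-6* (1901 to 1957) and 2.05 for the ABC transporter *wht-1* (2.5 to 2.61). *gas-1* replicate 2, which is also poor in sperm transcripts, was low in *daf-2* at 60.3 FPKM (68.9 to 72.4), *ist-1* at 2.82 (3.41 to 3.61) and *grd-3* at 13.6 (18.7 to 20.6).

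In the double mutants, replicate 3 was high in *bgal-1* at 19.8 FPKM (16.7 to 17.1 in the others), in the patched-related *ptr-13* at 11.8 (9.64 to 10.3) and in C44B11.6 at 1.66 (1.40 to 1.48). Replicate 4 was high in the glutamine synthetase gene *gln-3* at 64 (54.4 to 55.8) and in *ins-27* at 1.72 (1.51 to 1.56). Replicate 1 was low in the peroxisomal transporter *pmp-4* at 8.16 (9.51 to 9.71), and replicate 5 in *clec-52* at 16.8 (19.6 to 20.6).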

How the results depend on the processing

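Of 201 genes chosen by the naming rule, 194 passed the test, 184 of them kept the call under every alternative that tested them and 0 changed direction. Calls were lost in the fit of all 15 libraries for *pdk-1* (limma adjusted p = 0.061), *myo-3* (0.093), *col-95* (0.086) and *gpa-4* (0.05), without the sperm-poor libraries for *fmo-2* (0.055), *che-14* (0.11), *rict-1* (0.068) and *spe-39* (0.12), and at 1% FDR for *akt-1* (0.018). The counts of genes that rose and fell at any size stayed within 1.5 times the main counts except at 1% FDR, where 1125 rose and 1484 fell. Leaving out single libraries gave 1479 to 2208 genes that rose and 2011 to 3016 that fell. Rises of at least 2-fold numbered 173 with a pseudocount of 1 FPKM and 163 with a filter at 5 FPKM, which tests fewer genes, and falls of that size 54 with that filter and 160 with the sperm level as covariate. Without the 3 sperm-poor libraries, 1691 genes rose and 2032 fell, 3119 of the 4305 main calls being kept.

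Replicate numbers are shared between the strains, but whether they pair the libraries is not known. Deviations of same-numbered libraries correlated with r of 0.337, 0.758, 0.26, 0.552 and -0.109, and not every library correlated best with its own number. With the replicate number as a block, 1799 genes rose and 2378 fell, 284 and 133 of them by at least 2-fold, and 70 collagens fell against 27. Read depth is unknown, so the precision of low genes rests on the spread between libraries alone.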
